A study of Homo sapiens with 8 samples.

Results

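The immunoproteasome and peptide-trimming genes were followed in ribosome-associated RNA of brain-metastatic breast carcinoma cells. The 10 members were taken by their gene symbols from the deposited count table: the immunosubunits PSMB8, PSMB9 and PSMB10, their constitutive partners PSMB5, PSMB6 and PSMB7, the activator subunits PSME1 and PSME2, and the aminopeptidases ERAP1 and ERAP2. Each symbol matched 1 row, so 10 of 57445 gene rows were members, and all 10 passed the filter on low counts. The cells were MDA231-BrM2, derived from the human breast cancer line MDA-MB-231 by its growth in brain. The 4 groups of 2 libraries were cells with Cx43 hairpin 1 grown with astrocytes, cells with Cx43 hairpin 2 grown with astrocytes, cells with a control hairpin grown with astrocytes, and cells with the control hairpin grown alone, here the control monoculture. All groups therefore carried a hairpin and were the same line, and Cx43-depleted cells alone were not part of the design. Astrocytes and carcinoma cells were mixed 1 to 1 and kept together for 24 h. RNA was obtained by translating ribosome affinity purification, a method that recovers GFP-tagged polysomes with antibody-coated beads so that RNA of untagged neighbours is mostly left behind. The species of the astrocytes is not given in the sources used here.

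Reads counted in genes ranged from 38219702 to 48997555 per library, and 15806 genes were tested. The hairpin target GJA1, which encodes the gap junction protein Cx43, stood at 27.8 to 33.8 CPM (counts scaled to library size) in the Cx43 hairpin libraries and at 64.7 to 65.9 CPM in the control coculture. Its log2 difference was -1.11 (adjusted p = 7.89e-06, edgeR's quasi-likelihood test) over both hairpins. The control monoculture had 51.1 and 46.3 CPM, and GJA1 was 0.42 higher with astrocytes (adjusted p = 0.00665), a call that ended without replicate 2 of the monoculture (0.0616) or replicate 1 of the coculture with control hairpin (0.0507), within a range of 0.000428 to 0.0616. In each group replicates differed by more than counting error, with chi-squares per degree of freedom of 4.22 to 32.6, the largest between the hairpin 1 libraries. The p-values measure the spread between these libraries, which the series describes as independent replicates.

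The proteasome is a barrel-shaped protease that cuts proteins in the cytosol into peptides. Interferons induce 3 alternative catalytic subunits, which replace their constitutive partners in newly built particles: PSMB8 (beta5i) replaces PSMB5, PSMB9 (beta1i) replaces PSMB6, and PSMB10 (beta2i) replaces PSMB7. PSME1 and PSME2 form the PA28 cap, which opens the barrel and alters the peptides released. TAP1 and TAP2 carry the peptides into the endoplasmic reticulum, where ERAP1 and ERAP2 trim their amino ends before they bind MHC class I molecules. In carcinoma cells the set is best known for changing the peptides shown to CD8 T cells.

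Several promoters of the set hold the core letters of the interferon-stimulated response element (ISRE), shown here because these genes differ in their response below. RefSeq promoter windows on GRCh38.p14, 250 bases before to 50 after each annotated start, were matched for 8 of the 10 members, with 12 windows in all, and for the PSMB9 neighbour TAP1. PSMB6 and PSMB7 had none in the table. The core searched was GAAA, any 2 bases, then GAAA again. On either strand these letters were found in windows of 6 of the 8 members, and in 1195 of 27305 genes in the whole table (4.38%). The stretches with a match and 20 bases on either side are printed on the strand of the gene, with the match in capitals. They lie at chr6:32844022-32844071 (PSMB8, minus strand), chr16:67936842-67936891 (PSMB10, minus), chr14:24136179-24136228 (PSME1, plus), chr14:24146609-24146658 (PSME2, minus), chr5:96807914-96807963 (ERAP1, minus), chr5:96876450-96876499 (ERAP2, plus) and chr6:32853803-32853858 (TAP1, minus).
PSMB8: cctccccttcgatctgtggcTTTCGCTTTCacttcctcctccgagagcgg
PSMB10: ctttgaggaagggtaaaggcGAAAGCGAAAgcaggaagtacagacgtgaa
PSME1: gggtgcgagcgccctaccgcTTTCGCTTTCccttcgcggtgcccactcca
PSME2: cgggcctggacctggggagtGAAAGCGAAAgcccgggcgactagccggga
ERAP1: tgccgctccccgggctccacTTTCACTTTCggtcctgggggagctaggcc
ERAP2: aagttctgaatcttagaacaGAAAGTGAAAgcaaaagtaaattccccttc
TAP1: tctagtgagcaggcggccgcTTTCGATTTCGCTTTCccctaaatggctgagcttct

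The PSMB9 window, chr6:32853942-32854241 on the plus strand, held none of the letters and is printed whole because PSMB9 had the largest log2 change of the 10 members in both main comparisons.
PSMB9: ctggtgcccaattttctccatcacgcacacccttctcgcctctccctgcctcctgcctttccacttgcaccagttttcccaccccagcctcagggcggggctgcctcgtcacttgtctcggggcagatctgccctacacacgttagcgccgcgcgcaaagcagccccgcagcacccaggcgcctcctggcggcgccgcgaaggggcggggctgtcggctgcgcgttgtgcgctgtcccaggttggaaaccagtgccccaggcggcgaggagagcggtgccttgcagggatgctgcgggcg
PSMB9 and TAP1 are read in opposite directions from starts 488 bases apart, and the 2 overlapping TAP1 matches lie between those starts, 354 to 369 bases before that of PSMB9. The other letters searched were the gamma-activated site TTCNNNGAA and the kB site, GGGA and TTTCC with any base between them. The first was found once in a PSMB8 window and 2 times in a PSMB5 window and once in TAP1, against 9.38% of all genes, and the second in no member window but once in TAP1, against 0.678% of all genes. None of these matches overlapped an ISRE match. A match describes the letters of the reference sequence, and binding of a factor was not measured.

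**Figure D1:**
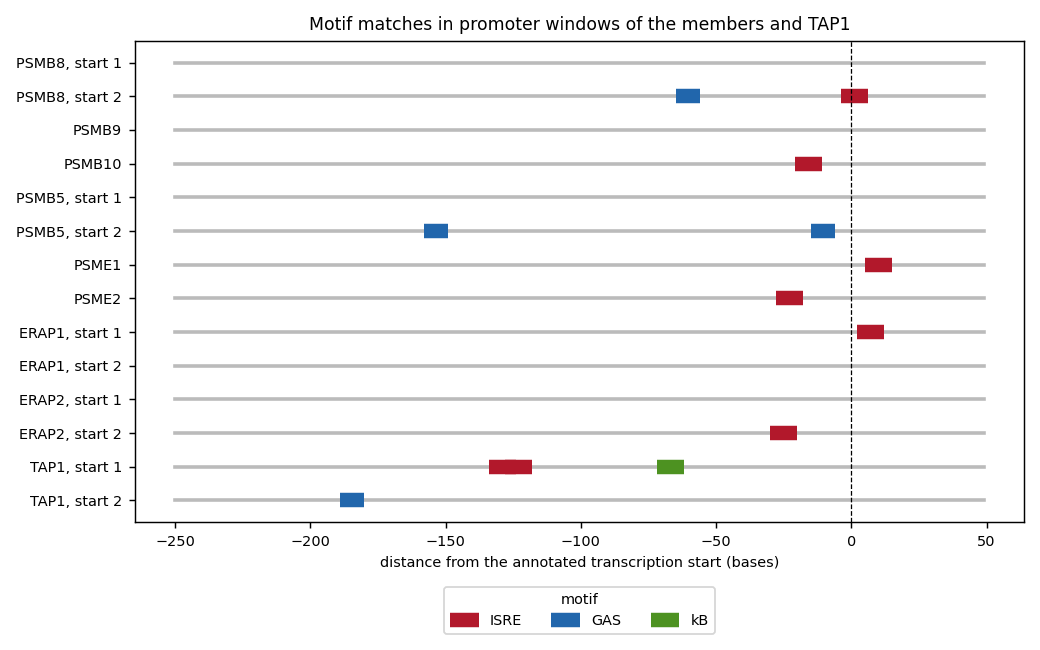
Positions of the 3 searched motifs in the promoter windows of the members and of TAP1, as distance in bases from the annotated start (0 is the first transcribed base). Grey lines are the windows and coloured blocks the matches: ISRE core in red, gamma-activated site in blue, kB site in green. The ISRE blocks of PSMB8, PSMB10, PSME1, PSME2, ERAP1 and ERAP2 lie between base -30 and base 14, and those of TAP1 further upstream.

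PSMB8 and PSMB9 were the immunosubunits that passed the test, in both main comparisons. With astrocytes, that is in the control coculture relative to the control monoculture, 4 of the 10 members were called higher at an adjusted p under 0.05, PSMB8, PSMB9, ERAP1 and ERAP2, and none lower, against 8.74% of all tested genes called higher and 11.7% in either direction. With Cx43 depletion, the mean of both hairpin cocultures minus the control coculture, 4 members were called lower, PSMB8, PSMB9, PSME1 and PSME2, and none higher, against 5.85% of all tested genes called lower and 9.22% in either direction. The median log2 change of the 10 members was 0.30 with astrocytes and -0.35 with depletion, and that of all tested genes was -0.0026 and -0.008. These comparisons share the control coculture libraries, so their opposite signs are not independent of each other. In bulk RNA, fewer cells carrying a transcript and less of it per cell cannot be told apart.

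PSMB8 (ENSG00000204264.4), the interferon-inducible chymotrypsin-like subunit, had 67.8 and 56.2 CPM with hairpin 1, 75.3 and 71.4 CPM with hairpin 2, 106 and 123 CPM in the control coculture, against 68.4 and 74.6 CPM in the control monoculture. Both control coculture libraries stood above every other library. The level averaged 62.0 ± 8.27 CPM with hairpin 1, 73.4 ± 2.73 CPM with hairpin 2, 114 ± 12.1 CPM in the control coculture and 71.5 ± 4.41 CPM in the control monoculture (SD, n = 2 each). PSMB8 fell by 0.76 on the log2 scale with depletion (SE 0.0905, edgeR adjusted p = 0.00156), to 0.591 of the control coculture (95% interval 0.512 to 0.681). With astrocytes it rose 1.60-fold over the control monoculture (log2 0.68, SE 0.107, adjusted p = 0.00469). That rise missed the threshold without replicate 1 of the control monoculture (log2 0.60, adjusted p = 0.0583), within a range of 9.22e-11 to 0.0583 over 15 alternatives. The fall passed under all 15. The antisense gene PSMB8-AS1 shares 618 exon bases with PSMB8 and had 196 to 476 reads per library, against 2326 to 4573 for PSMB8, and no strand setting is given, so reads of the pair cannot be told apart with certainty.

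PSMB9 (ENSG00000240065.3), the inducible counterpart of the caspase-like subunit, lies beside PSMB8 and TAP1 in the MHC region. It had 46.7 and 37.2 CPM with hairpin 1, 51.8 and 46.3 CPM with hairpin 2, 72.1 and 88.1 CPM in the control coculture, against 41.5 and 46.4 CPM in the control monoculture. Again the control coculture did not overlap with the other groups. PSMB9 fell with depletion by 0.82 on the log2 scale (SE 0.11, adjusted p = 0.00306), to 0.567 of the control coculture (95% interval 0.476 to 0.674). With astrocytes it rose 1.82-fold (log2 0.87, SE 0.131, adjusted p = 0.00372). Both calls passed under all 15 alternatives, with adjusted p up to 0.0434 and 0.0496.

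PSMB10 (ENSG00000205220.7), the inducible trypsin-like subunit on chromosome 16, had far fewer reads, 191 to 348 per library. It had 6.11 and 4.61 CPM with hairpin 1, 6.24 and 5.91 CPM with hairpin 2, 6.50 and 8.02 CPM in the control coculture, against 6.36 and 7.24 CPM in the control monoculture. The control coculture and the control monoculture overlapped. The log2 difference with astrocytes was 0.09 (95% interval -0.25 to 0.44, adjusted p = 0.737), and that with depletion was -0.35 (95% interval -0.65 to -0.04, adjusted p = 0.146). The depletion difference passed without replicate 1 of hairpin 1 (-0.45, adjusted p = 0.0456), within a range of 0.0398 to 0.638 over 15 alternatives. Of its exon bases 34.8% are shared with the gene AC040162.1 on the same strand, which had 23 to 44 reads per library.

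**Figure D2:**
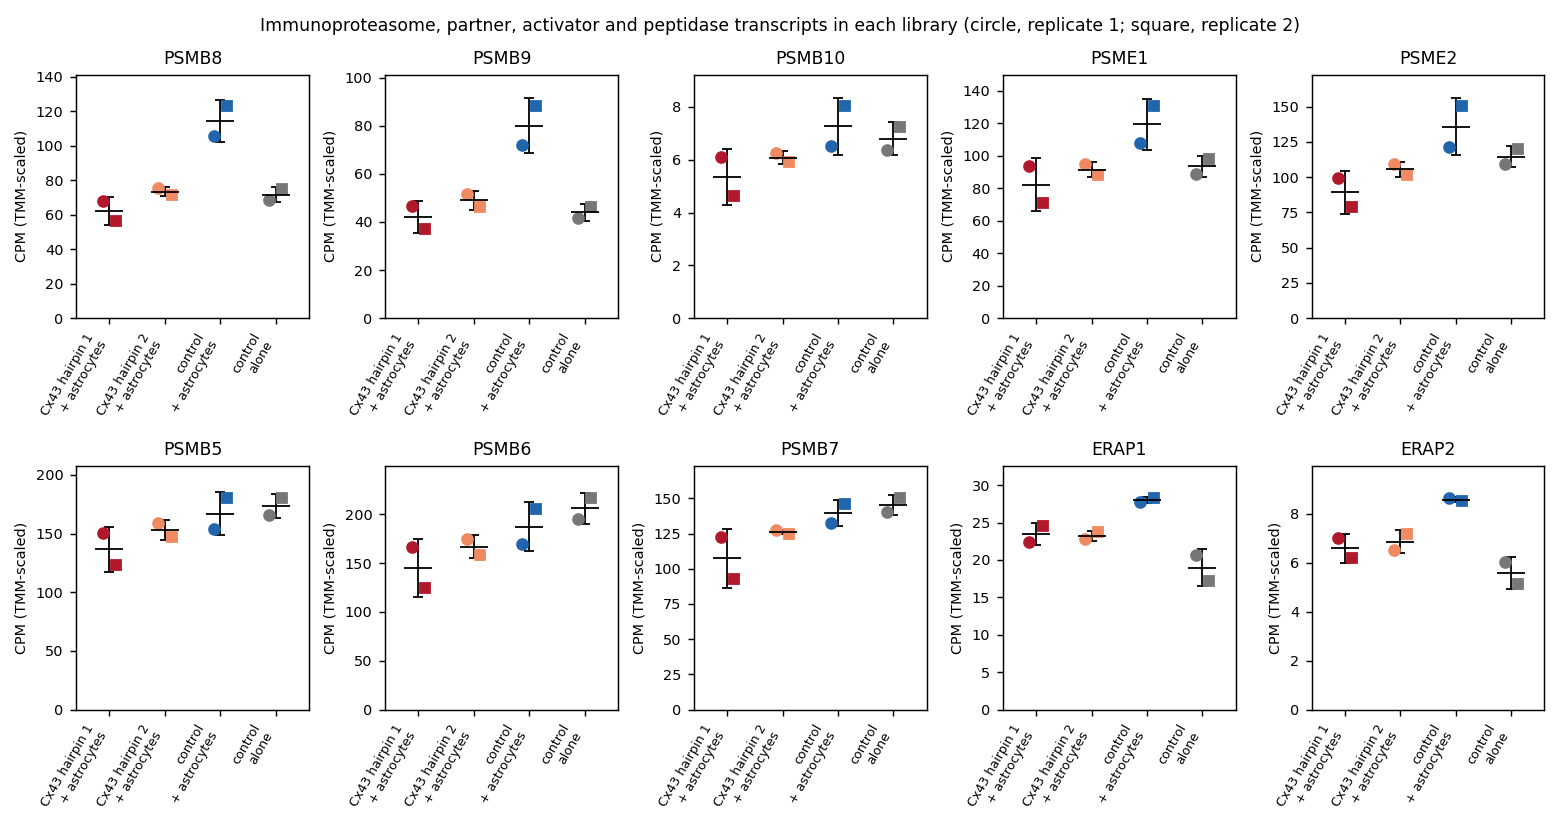
Scaled CPM of the 10 members in each of the 8 libraries, grouped as Cx43 hairpin 1 with astrocytes, Cx43 hairpin 2 with astrocytes, control with astrocytes and control alone. Points are libraries, horizontal bars are means and error bars are SD (n = 2). PSMB8 and PSMB9 are above 72 CPM in both control cocultures and the replicate 2 library of hairpin 1 is lowest for all PSMB and PSME genes.

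The constitutive partners did not pass the test in any comparison. PSMB5 (ENSG00000100804.14), the chymotrypsin-like subunit, had 150.3 and 123 CPM with hairpin 1, 159 and 147 CPM with hairpin 2, 154 and 180.0 CPM in the control coculture, against 166 and 181 CPM in the control monoculture. PSMB6 (ENSG00000142507.5), the caspase-like subunit, had 166 and 124 CPM with hairpin 1, 175 and 159 CPM with hairpin 2, 169.9 and 205 CPM in the control coculture, against 195 and 217 CPM in the control monoculture. PSMB7 (ENSG00000136930.8), the trypsin-like subunit, had 122 and 92.5 CPM with hairpin 1, 127 and 125 CPM with hairpin 2, 133 and 146 CPM in the control coculture, against 140.1 and 151 CPM in the control monoculture. For all 3 the lowest library was replicate 2 of hairpin 1. Their log2 differences with depletion were -0.21, -0.27 and -0.26 (adjusted p = 0.218, 0.205 and 0.151), and with astrocytes -0.05, -0.14 and -0.06 (adjusted p = 0.789, 0.575 and 0.782). Without replicate 1 of hairpin 1, which left its library 2 to stand for that hairpin, PSMB6 (-0.38, adjusted p = 0.0344) and PSMB7 (-0.37, adjusted p = 0.0112) were called lower with depletion. Over the 15 alternatives the adjusted p for depletion ran from 0.0125 to 0.743 for PSMB6 and from 0.0112 to 0.558 for PSMB7.

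Set against their partners within the same library, PSMB8 and PSMB9 varied little between replicates. PSMB8 had 45.1 and 45.6 counts per 100 PSMB5 counts with hairpin 1, 47.4 and 48.5 with hairpin 2, 68.6 and 68.2 in the control coculture, and 41.1 and 41.3 in the control monoculture. PSMB9 had 28.1 and 30.0 counts per 100 PSMB6 counts with hairpin 1, 29.6 and 29.2 with hairpin 2, 42.4 and 42.9 in the control coculture, and 21.3 and 21.4 in the control monoculture. The control coculture was highest and the control monoculture lowest for both pairs, with every hairpin library in between. Thus the hairpin libraries did not overlap with the control monoculture in these ratios, whereas they did in the CPM of PSMB8 and PSMB9, and PSMB5 and PSMB6, the denominators, averaged less CPM with both hairpins than in the control monoculture.

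PSMB10 had 4.99 and 4.98 counts per 100 PSMB7 counts with hairpin 1, and 4.91 and 4.74 with hairpin 2. It had 4.90 and 5.50 in the control coculture, and 4.54 and 4.81 in the control monoculture. Both control coculture libraries thus lay above both control monoculture libraries. The hairpin 1 libraries lay within the control coculture range, and the hairpin 2 libraries overlapped with both control groups. The log2 ratio differed by -0.55 with depletion for both PSMB8 per PSMB5 and PSMB9 per PSMB6, and by -0.08 for PSMB10 per PSMB7 (two-sided exact permutation p = 0.133, 0.133 and 0.533, 4 libraries against 2). With astrocytes it differed by 0.73, 1.00 and 0.15 (exact p = 0.333 for each, 2 libraries against 2). The two-sided p was formed by doubling the one-sided share. In that form the smallest p possible is 0.133 and 0.333, so neither comparison could pass 0.05. The 6 tests gave Benjamini-Hochberg values of 0.399 to 0.533.

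**Figure D3:**
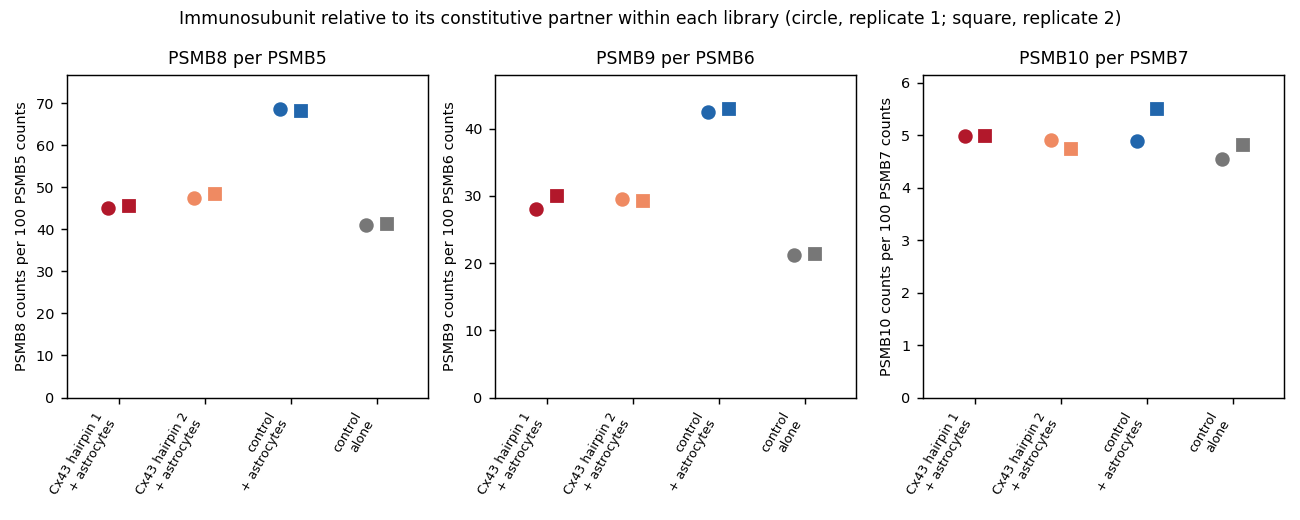
Counts of each immunosubunit per 100 counts of its constitutive partner in the same library, for the 4 groups in the order Cx43 hairpin 1 with astrocytes, Cx43 hairpin 2 with astrocytes, control with astrocytes and control alone. Points are libraries. PSMB8 per PSMB5 and PSMB9 per PSMB6 form separate levels, with 68.6 and 68.2 against 41.1 and 41.3 for PSMB8 in control cells with and without astrocytes.

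The PA28 subunits were called lower with depletion, by calls near the threshold. The calls held under 6 of 15 alternatives for PSME1 and 8 of 15 for PSME2. PSME1 (ENSG00000092010.10) had 93.5 and 70.6 CPM with hairpin 1, 94.6 and 88.1 CPM with hairpin 2, 108 and 130.3 CPM in the control coculture, against 88.7 and 97.9 CPM in the control monoculture. PSME2 (ENSG00000100911.9) had 99.7 and 78.6 CPM with hairpin 1, 109 and 102 CPM with hairpin 2, 122 and 150.3 CPM in the control coculture, against 109 and 120.0 CPM in the control monoculture. Both control coculture libraries were above every other library for both genes. PSME1 fell by 0.46 on the log2 scale with depletion (SE 0.116, adjusted p = 0.0433) and PSME2 by 0.49 (SE 0.111, adjusted p = 0.0308).

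Without replicate 2 of the control coculture the depletion values were -0.31 for PSME1 (adjusted p = 0.323) and -0.32 for PSME2 (adjusted p = 0.266). Leaving out library 1 or 2 of the control monoculture gave adjusted p = 0.0697 and 0.0744 for PSME1 and 0.0552 and 0.0581 for PSME2. Leaving out library 1 or 2 of hairpin 2 gave adjusted p = 0.105 and 0.156 for PSME1 and 0.0844 and 0.127 for PSME2, and PSME1 also missed the threshold without replicate 1 of the control coculture (0.0585). Over all alternatives the adjusted p ran from 7.02e-07 to 0.323 for PSME1 and from 7.79e-08 to 0.266 for PSME2. With astrocytes the log2 differences were 0.35 for PSME1 (95% interval 0.04 to 0.66, adjusted p = 0.135) and 0.25 for PSME2 (95% interval -0.05 to 0.54, adjusted p = 0.265). PSME1 passed there without replicate 1 (adjusted p = 0.0459) or 2 (0.0458) of hairpin 1, within a range of 0.00432 to 0.472.

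Relative to the summed counts of PSMB5, PSMB6 and PSMB7, a ratio chosen after the values were seen and not tested, replicates lay closer together. PSME1 had 21.3 and 20.8 counts per 100 with hairpin 1, 20.5 and 20.5 with hairpin 2, 23.7 and 24.5 in the control coculture, and 17.7 and 17.9 in the control monoculture. PSME2 had 22.7 and 23.1 per 100 with hairpin 1, 23.7 and 23.6 with hairpin 2, 26.6 and 28.3 in the control coculture, and 21.8 and 21.9 in the control monoculture. On this scale the 4 hairpin libraries lay between both control groups for each PA28 gene. The denominator bears on that order: in depleted cocultures relative to the control monoculture, PSMB5, PSMB6 and PSMB7 had log2 differences of -0.26, -0.41 and -0.32 (adjusted p = 0.0916, 0.0506 and 0.0624). On the CPM scale PSME1 was -0.11 (adjusted p = 0.549) and PSME2 -0.24 (adjusted p = 0.163) in the same contrast, so the ratio turns the sign of both.

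ERAP1 and ERAP2, the aminopeptidases of the endoplasmic reticulum, were higher with astrocytes. ERAP1 (ENSG00000164307.8) had 22.5 and 24.6 CPM with hairpin 1, 22.8 and 23.7 CPM with hairpin 2, 27.8 and 28.3 CPM in the control coculture, against 20.7 and 17.2 CPM in the control monoculture. ERAP2 (ENSG00000164308.12) had 7.01 and 6.18 CPM with hairpin 1, 6.53 and 7.19 CPM with hairpin 2, 8.66 and 8.51 CPM in the control coculture, against 6.05 and 5.14 CPM in the control monoculture. For both genes every hairpin library lay below the control coculture and above the control monoculture. With astrocytes ERAP1 rose 1.48-fold (log2 0.57, SE 0.0967, adjusted p = 0.00694), a call that passed under all 15 alternatives. ERAP2 rose 1.54-fold (log2 0.62, SE 0.115, adjusted p = 0.0102), but missed the threshold without replicate 2 of the control monoculture (0.50, adjusted p = 0.0816) or replicate 1 of the control coculture (0.61, adjusted p = 0.0624), within a range of 6.99e-05 to 0.0816.

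Neither peptidase passed the test of depletion. The log2 differences were -0.26 for ERAP1 (95% interval -0.45 to -0.08, adjusted p = 0.0822) and -0.35 for ERAP2 (95% interval -0.57 to -0.13, adjusted p = 0.0591). ERAP1 passed without replicate 2 of hairpin 1 (-0.30, adjusted p = 0.0487) and ERAP2 without its library 1 (-0.40, adjusted p = 0.0307), within ranges of 0.0487 to 0.323 for ERAP1 and 0.0258 to 0.238 for ERAP2. LNPEP, an aminopeptidase of the same family that lies beside ERAP2 on chromosome 5, had 98.9 and 112 CPM with hairpin 1, 97.8 and 107 CPM with hairpin 2, 114 and 104 CPM in the control coculture, against 63.6 and 61.2 CPM in the control monoculture. LNPEP rose with astrocytes (0.81, adjusted p = 0.000515) and did not pass with depletion (-0.07, adjusted p = 0.582).

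Levels of different genes were compared as mean CPM per kilobase of the principal GENCODE v29 transcript. Reads were counted per gene, so the levels and their order depend on the length used. All annotated exons together span 3072 bases for PSMB9, 2997 for PSMB8 and 1765 for PSMB5. The principal transcripts have 782, 1124 and 1294. In the control coculture the constitutive subunits led, with 220.2 for PSMB6, 142 for PSMB7 and 129 for PSMB5. PSME1 followed at 118.5, PSMB9 and PSMB8 at 102 each and PSME2 at 96.9, and PSMB10, ERAP1 and ERAP2 stood far lower, at 5.96, 5.105 and 1.505. In the control monoculture PSMB9 (56.2) and PSMB8 (63.6) were further below PSMB6 (242) and PSMB7 (148). The immunosubunits PSMB8 and PSMB9 overlap on opposite strands at chr6:32840717-32844703 and chr6:32844136-32859585, PSME1 and PSME2 lie close together at chr14:24136158-24138967 and chr14:24143362-24147570, and ERAP1 and ERAP2 at chr5:96760810-96808100 and chr5:96875939-96919716 (GRCh38). PSMB10 (chr16:67934502-67937087), PSMB5 (chr14:23016543-23035230), PSMB6 (chr17:4796144-4798503) and PSMB7 (chr9:124353466-124415444) lie apart from their partners. PSMB8 and PSMB9 share 139 exon bases with each other, and PSMB9 shares 174 with PSMB8-AS1 on the same strand, where reads cannot be told apart on any strand setting. ERAP1 shares 299 exon bases with CAST and PSME2 shares 216 with RNF31. Without a known strand setting, reads from the shared bases of opposite-strand pairs cannot be told apart.

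**Figure D4:**
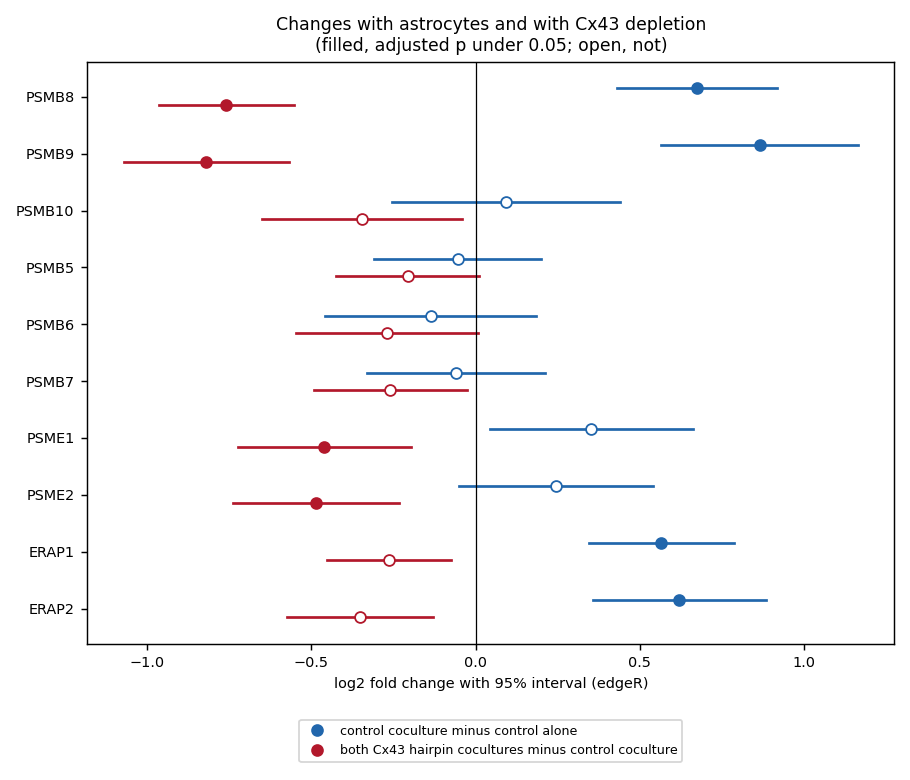
Log2 fold changes of the 10 members with 95% intervals, for the control coculture minus the control monoculture (blue) and for both Cx43 hairpin cocultures minus the control coculture (red). Filled points passed an adjusted p of 0.05. PSMB8 and PSMB9 are filled in both comparisons, and the constitutive PSMB5, PSMB6 and PSMB7 in neither.

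The hairpins were also compared one at a time. With hairpin 1, PSMB8 (-0.88), PSMB9 (-0.93), PSME1 (-0.54) and PSME2 (-0.61) were called lower (adjusted p = 0.00227, 0.00517, 0.048 and 0.0288), 4 of 10 members against 4.73% of all tested genes. With hairpin 2, PSMB8 (-0.64) and PSMB9 (-0.71) were called lower (adjusted p = 0.0134 and 0.0208), 2 of 10 against 3.2%. The difference of hairpin 2 minus hairpin 1 passed for 0 of 10 members in edgeR and in DESeq2, against 0.0316% of all tested genes in edgeR, and no member had an unadjusted edgeR p under 0.05. The nearest was PSMB8, at 0.24 (95% interval -0.002 to 0.49, unadjusted p = 0.0515, adjusted p = 0.705). The PSME1 and PSME2 calls with hairpin 1 ended without its library 2 (adjusted p = 0.16 and 0.104) or replicate 2 of the control coculture (0.277 and 0.185), where replicate 2 of hairpin 1 was the lowest library for both genes. The PSME1 call also ended without either replicate of the monoculture (0.0789 and 0.0811), without replicate 1 of the coculture with control hairpin (0.0569) and without either replicate of hairpin 2 (0.0983 for each), and passed without replicate 1 of hairpin 1 (0.0108). Over its alternatives PSME1 ran from 8.24e-07 to 0.277 and PSME2 from 6.85e-09 to 0.185, and PSME2 missed the threshold without either replicate of the monoculture or of hairpin 2 as well. The hairpin 2 calls ended without replicate 2 of the control coculture (adjusted p = 0.112 for PSMB8 and 0.152 for PSMB9), without replicate 1 of hairpin 2 (0.116 and 0.121) or without its library 2 (0.174 and 0.237), within ranges of 2.64e-09 to 0.174 and 7.65e-11 to 0.237.

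Depleted cocultures were then set against the control monoculture, a contrast that shares libraries with both comparisons above. ERAP1 was the 1 member called, 0.30 higher (SE 0.0847, adjusted p = 0.0416), against 10.8% of all tested genes called higher and 17.1% called in either direction. Its call ended without either library of the control monoculture (adjusted p = 0.0524 and 0.295), either of the control coculture (0.0548 and 0.0574), replicate 2 of hairpin 1 (0.0553) or either of hairpin 2 (0.0915 and 0.134), within a range of 0.0116 to 0.295 over 15 alternatives. PSMB8 differed by -0.08 (95% interval -0.29 to 0.13) and PSMB9 by 0.05 (95% interval -0.21 to 0.30), with adjusted p = 0.554 and 0.811. PSMB6 missed the threshold narrowly at -0.41 (95% interval -0.68 to -0.13, adjusted p = 0.0506). It passed without replicate 1 of hairpin 1 (-0.52, adjusted p = 0.00658) and without either replicate of the coculture with control hairpin (0.0415 and 0.0452), and DESeq2 called PSMB6 and PSMB7 lower (adjusted p = 0.0125 and 0.0293). Over 15 alternatives the range was 1.71e-06 to 0.287 for PSMB6 and 0.00044 to 0.306 for PSMB7.

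None of the other 20S subunits passed the test. Of the 11 other subunits of the 20S core, 0 were called with astrocytes (median log2 -0.07) or with depletion (median -0.22). Of all tested genes 11.7% were called in either direction with astrocytes and 9.22% with depletion. With astrocytes 8.74% were called higher, so lower calls were the smaller part there. Of 22 genes of the 19S regulatory particle, which unfolds ubiquitinated substrates, 2 were called lower with astrocytes, the ubiquitin receptor ADRM1 (-0.28, adjusted p = 0.0258) and PSMD12 (-0.26, adjusted p = 0.0363). With depletion 1 of 22 was called lower, against 5.85% of all tested genes, the ATPase subunit PSMC1 (-0.23, adjusted p = 0.0427). These 3 calls ended without most single libraries, with adjusted p up to 0.157, 0.204 and 0.227. In depleted cocultures against the control monoculture 6 of the 22 19S genes were called lower and 0 higher. In that contrast 17.1% of all tested genes were called in either direction and 10.8% were called higher, so lower calls were the smaller part. PSME3, the PA28 gamma subunit of nuclear proteasomes, differed by -0.17 with astrocytes (adjusted p = 0.128) and 0.06 with depletion (adjusted p = 0.574). POMP, the chaperone that assembles new proteasomes, differed by -0.25 (adjusted p = 0.301) and -0.06 (adjusted p = 0.823). The tissue-specific subunits PSMB11 and PSMA8 had at most 2 reads in any library.

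Some genes of the neighbouring steps changed as well. Of 13 tested genes of MHC class I and peptide loading 7 were called higher with astrocytes (median 0.29) and 7 lower with depletion (median -0.38), against 8.74% of all tested genes called higher with astrocytes and 5.85% called lower with depletion. The other 6 in each comparison did not pass the test. TAP1, the transporter subunit that shares its upstream region with PSMB9, had 135 and 153 CPM with hairpin 1, 156 and 154 CPM with hairpin 2, 356 and 341 CPM in the control coculture, against 118 and 116 CPM in the control monoculture. It fell by 1.22 with depletion (adjusted p = 4.22e-06) and rose by 1.57 with astrocytes (adjusted p = 2.78e-06). TAP2 rose by 0.26 with astrocytes (adjusted p = 0.0451), a call that ended under 10 of 15 alternatives, and was -0.20 with depletion (adjusted p = 0.0718). HLA-E fell by 0.60 with depletion (adjusted p = 0.000306) and rose by 0.52 with astrocytes (adjusted p = 0.00127).

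Of 10 other cytosolic and membrane peptidases, 2 were called higher with astrocytes (8.74% of all tested genes), LNPEP and the leucine aminopeptidase LAP3, and 1, LAP3, was called lower with depletion (5.85% of all tested genes). LAP3 had 55.9 and 52.3 CPM with hairpin 1, 53.6 and 56.4 CPM with hairpin 2, 110.0 and 108 CPM in the control coculture, against 55.3 and 59.0 CPM in the control monoculture. Its log2 changes were -1.001 with depletion (adjusted p = 1.16e-05) and 0.93 with astrocytes (adjusted p = 5.03e-05). Of 8 tested regulators of these genes 6 were called lower with depletion and 6 higher with astrocytes, beside the same shares of all tested genes. IRF1, a factor that binds ISRE letters, changed by -0.61 with depletion (adjusted p = 0.00041) and 0.93 with astrocytes (adjusted p = 5.4e-05), and its relative IRF2 by -0.92 and 0.95 (9.24e-05 and 0.000172). NLRC5, the class I transactivator, changed by -0.76 with depletion (adjusted p = 0.00134) and 1.16 with astrocytes (adjusted p = 0.000193).

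**Figure D5:**
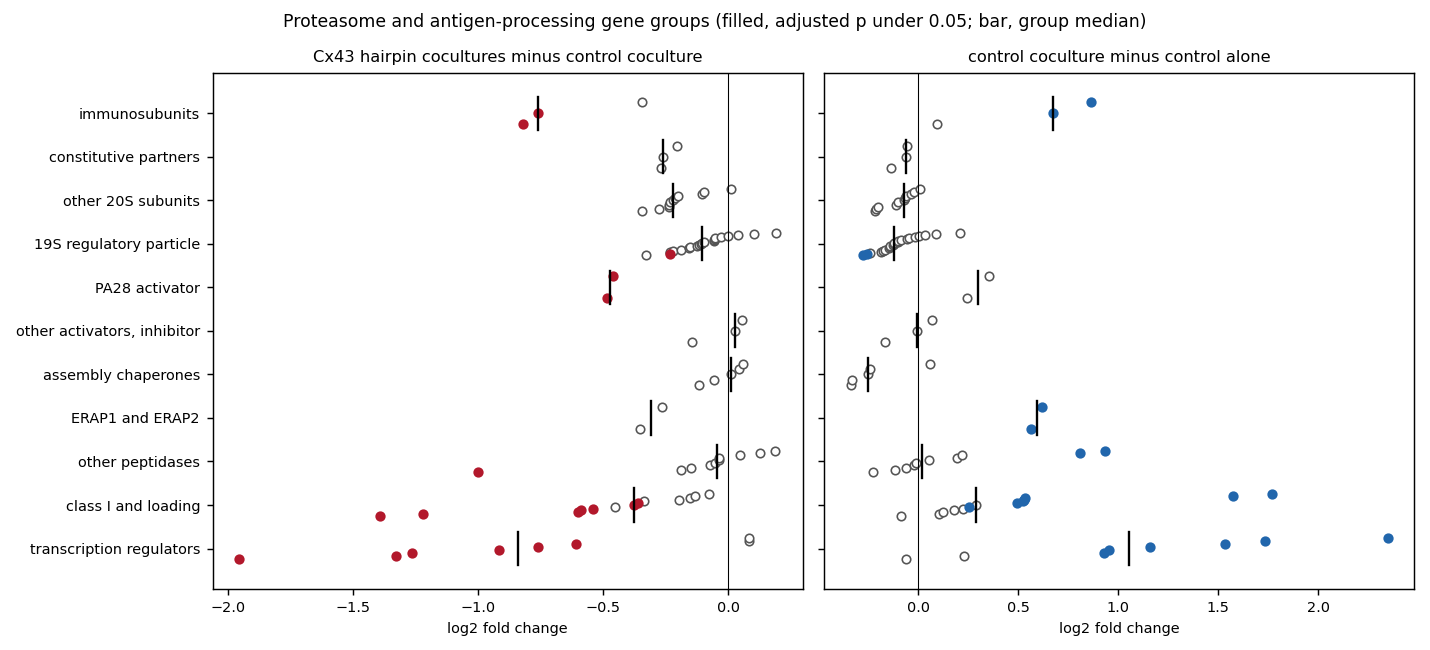
Log2 fold changes of the genes in each group, for both Cx43 hairpin cocultures minus the control coculture (left) and the control coculture minus the control monoculture (right). Each point is a gene, filled where the adjusted p was under 0.05, and black bars are group medians. The 11 other 20S subunits have no filled point, while 2 of 3 immunosubunits are filled on both sides.

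Profiles over the 8 libraries were compared among 10436 genes, without symbols that end in P and digits, such as TAP1, TAP2 and LAP3. The genes closest to the immunosubunits were taken by the root mean square difference of centred log2 CPM. For PSMB8 they were PROCR, IFITM2, NMI, HLA-DRA and GCA, at differences of 0.0594 to 0.082. For PSMB9 they were IFITM2, AKR1C3, HLA-DRA, NMI and ID1, at 0.0651 to 0.0852, so 3 genes were on both lists. For PSMB10 they were PTMA, RPL23A, RPL29, CLK4 and BTF3, at 0.027 to 0.0449, and no gene was shared with either. With 191 to 348 reads per library, the PSMB10 profile carries more relative counting error than those of PSMB8 and PSMB9. How far counting error shaped its list was not tested. The spread of the members' own profiles on this scale was 0.341, 0.387 and 0.201. The libraries share their scaling and 2 of the 8 are from each group, so these are descriptions, and PTMA and the ribosomal protein genes have many near-identical copies among which reads cannot be placed with certainty.

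Some markers of other cell types moved with the astrocyte comparison. Of 15 astrocyte markers 10 were tested and 3 were called higher with astrocytes, against 8.74% of all tested genes. They were GFAP (0.62, adjusted p = 0.00166), SLC1A3 (0.89, adjusted p = 0.00203) and SOX9 (0.35, adjusted p = 0.0455). Of the 10, 7 lay above 0 and 3 below, with none called lower. Those below were ALDH1L1 (-0.20, adjusted p = 0.565), FGFR3 (-0.34, adjusted p = 0.183) and NDRG2 (-0.07, adjusted p = 0.938). GFAP, an intermediate filament on the astrocyte list, had 16.5 and 16.9 CPM with hairpin 1, 11.7 and 12.2 CPM with hairpin 2, 13.8 and 12.8 CPM in the control coculture, against 8.80 and 8.53 CPM in the control monoculture. The monoculture, grown without astrocytes, thus had GFAP reads as well, 375 and 410 per library. All cocultures stood above the monoculture, and GFAP was higher with hairpin 1 than in the control coculture (0.33, adjusted p = 0.0397). The glutamate transporter SLC1A3 had 3.65 and 3.57 CPM with hairpin 1, 4.10 and 3.89 CPM with hairpin 2, 5.01 and 5.61 CPM in the control coculture, against 2.67 and 3.04 CPM in the control monoculture. With depletion SLC1A3 (-0.48, adjusted p = 0.0222) and GLUL (-0.26, adjusted p = 0.0169) were called lower, 2 of 10 against 5.85% of all tested genes. GFAP was 0.09 with depletion (adjusted p = 0.464). The summed level of the list was 224 to 238 CPM with the hairpins, 267 to 272 CPM in the control coculture and 226 to 230.4 CPM in the control monoculture. Most of that sum was GLUL, at 162 to 199 CPM, and SOX9, at 35.6 to 48.1 CPM. GJB6 had at most 0.0241 CPM and AQP4 at most 0.169 CPM in any library.

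Of 12 microglia and macrophage markers 5 were tested and 4 were called higher with astrocytes, against 8.74% of all tested genes. They were CSF1R (1.16, adjusted p = 0.00852), CD14 (1.34, adjusted p = 0.00701), CD68 (0.61, adjusted p = 0.0393) and LAPTM5 (0.77, adjusted p = 0.000133). CSF1R ranged from 1.13 to 1.38 CPM with the hairpins, from 1.32 to 1.59 CPM in the control coculture and from 0.633 to 0.666 CPM in the control monoculture. CD14 ranged from 1.39 to 1.57 CPM with the hairpins, from 1.47 to 2.12 CPM in the control coculture and from 0.657 to 0.749 CPM in the control monoculture. For both genes every coculture library was above the monoculture. CD68 was called lower with depletion (-0.84, adjusted p = 0.00841), 1 of the 5 tested against 5.85% of all tested genes. The summed level was 133 to 153 CPM with the hairpins, 149 to 151 CPM in the control coculture and 87.5 to 88.3 CPM in the control monoculture, most of it LAPTM5. AIF1 and TYROBP were at 0 in every library, CX3CR1, P2RY12 and SPI1 had at most 0.0268 CPM, and PTPRC had up to 0.314 CPM. The marker genes named from both lists were chosen after their values were seen and were not limited to those with the smallest p. The part of these markers in the changes of the members was not tested.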

How the data were processed

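The values the authors deposited are raw counts: whole numbers for 57445 genes in 8 libraries, under a title that says normalized. The 5 HTSeq counter entries stayed out of library sizes and tests, and reads aligned more than once made up 14.2% to 26.1% of a library. Per the submitters' processing notes, TopHat2, HTSeq and DESeq2 were used with hg19, and no version is stated. The annotation, how overlapping reads were counted and the strand option are not given in the sources used here. Differences were tested by edgeR 4.0.16 (R 4.3.3), quasi-likelihood. Genes with a mean of at least 10 counts were kept (15806), scaled by TMM factors of 0.975 to 1.03, in 1 fit of 4 groups. P-values were adjusted over all tested genes (Benjamini-Hochberg, threshold 0.05). The test was also run on simulated counts drawn with the spread of its own fit, and the outcome is not reported here. SE is the log2 change divided by the root of F, and 95% intervals use its t distribution. At this depth 3 counts equal 0.0624 to 0.0805 CPM, a floor that covers counting error only. Where a symbol had 2 rows (PSMA1, PSMA2, TAP2) the more highly counted one was used. Lengths come from the principal transcripts of GENCODE v29 (GRCh38), and promoters from RefSeq.

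The members, lists and tests were chosen with earlier results of these data known. All members were named; from other lists up to 4 genes with the smallest p in a comparison could be named, plus GJA1, TAP1, TAP2, LNPEP, PSME3, POMP, IRF1 and NLRC5 anywhere; 1 further gene of this rule is not reported here. For the immunosubunits the 5 nearest profiles were named among genes with a group mean of at least 100 counts (0.5 CPM added before logs). Clone, antisense, open reading frame, small RNA and pseudogene entries were left out by their symbols. That rule also dropped HLA-DP genes and coding genes whose symbols end in P and digits, among them TAP1, TAP2 and LAP3. Alternatives were other scalings, DESeq2 1.42.0, other filters, only the compared groups, a replicate block and leaving out each library.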

Additional observations from a re-analysis of the deposited data

How the results depend on the processing

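Main counts of called members were 4 with astrocytes, 4 with depletion, 4 with hairpin 1, 2 with hairpin 2, 1 for depleted cocultures against the monoculture and 0 between hairpins. Leaving out each library gave 3 to 5, 2 to 8, 2 to 9, 0 to 2, 0 to 5 and 0 to 0. With no filter on low counts they were 8 with depletion, 9 with hairpin 1, 4 with hairpin 2 and 5 for depleted cocultures against the monoculture, the last being 3 with DESeq2. With only the compared groups they were 2 with depletion and 2 with hairpin 1. With the replicate block they were 2 with depletion, 2 with hairpin 1, 1 with hairpin 2 and 0 for depleted cocultures against the monoculture. The cause was not tested. The replicate numbers were not used as pairs: deviations of same-numbered libraries correlated at -0.562 to 0.315 between groups. Over all genes the calls were 1844 with astrocytes, 1457 with depletion, 1236 with hairpin 1, 658 with hairpin 2, 2709 for depleted cocultures against the monoculture and 5 between hairpins. They were 1160, 700, 446, 319, 1502 and 0 with the block, and 2805, 2167, 2269, 1191, 4117 and 304 among 30073 unfiltered genes. Leaving out single libraries gave 738 to 2582, 343 to 2314, 281 to 2405, 150 to 1101, 531 to 4717 and 0 to 3. With only the compared groups hairpin 1 had 236, hairpin 2 had 987 and the pair of hairpins 2, where DESeq2 called 22. Scaling by total counts called 786 of 1485 genes higher with depletion and 826 of 1412 with hairpin 1, against 533 of 1457 and 488 of 1236.

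Leaving out libraries moved the log2 ratio difference of PSMB8 per PSMB5 between 0.73 and 0.74 with astrocytes and between -0.57 and -0.54 with depletion, that of PSMB9 per PSMB6 between 0.99 and 1.01 and between -0.56 and -0.53, and that of PSMB10 per PSMB7 between 0.07 and 0.24 and between -0.17 and 0.00079. Signs turned for values that had not passed the test. Leaving out libraries moved the log2 values with astrocytes between -0.082 and 0.24 for PSMB10 (also -0.0084 without replicate 1 of the monoculture), -0.19 and 0.053 for PSMB5, -0.15 and 0.0066 for PSMB7, and -0.059 and 0.0024 for PSMC1. With depletion they moved between -0.20 and 0.11 for POMP, and ADRM1 was 0.0092 with total counts only. The range was -0.23 to 0.0041 for PSMB5 with hairpin 2, and -0.045 to 0.12 for PSMB9 in depleted cocultures against the monoculture. Between hairpins it was -0.0094 to 0.39 for PSMB10, -0.036 to 0.36 for PSME1, -0.087 to 0.046 for ERAP1 and -0.033 to 0.14 for ERAP2. PSMB10 and ERAP2, at 191 to 348 and 247 to 337 reads per library, are the members with the fewest reads.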
